A study of Bos taurus and Bubalus bubalis with 9 samples.

Results

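Genes for RNA-binding proteins and splicing factors that also give circular RNAs were followed in muscle and fat of buffalo and cattle. A gene was a member when its symbol began with RBM, RBFOX, CELF, MBNL, SRSF, HNRNP, PTBP, ELAVL, DDX, DHX, SF3, PRPF, CPSF, LARP, EIF4, CNOT, PUM, TNRC6, or AGO with a digit after it, or was QKI, XRN1 or XRN2. This gave 111 of the 5280 named host genes in the circRNA tables of both species, and 107 of the 111 had a read in a library used here. The members had 211 of 10701 listed back-splice junctions in the buffalo table and 402 of 18535 in the cattle table.

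Total RNA was the input for 9 libraries in 3 groups of 3. The paper names a TruSeq RNA kit for their construction, and the part of the kit in the circRNA counts was not tested. The groups were longissimus dorsi muscle of Xinyang buffalo (low intramuscular fat by the labels), longissimus dorsi muscle of Nanyang cattle (high intramuscular fat) and back subcutaneous adipose tissue of Nanyang cattle. All animals were weaned at 3 months, castrated at 6 months, fattened from 18 months and slaughtered at 30 months. Each species was represented by 3 animals of 1 breed on 1 farm, so species, breed and farm cannot be told apart. The label of 3 cattle means that muscle and adipose libraries came from the same animals, but whether equal replicate numbers mark 1 animal is not stated. Buffalo adipose libraries were not analysed here.

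A circRNA forms when a downstream splice donor is joined to an upstream acceptor, and the read that crosses this back-splice junction is its signature. RNA-binding proteins act on the process itself. QKI and muscleblind proteins bind introns beside circularised exons and favour back-splicing, whereas the helicase DHX9 unwinds paired intron repeats and lowers it. Many of the genes coding for such proteins, MBNL1 among them, are also known hosts of circRNAs. A separate class, circular intronic RNA, is known to derive from intron lariats, in which the 5′ end of an intron is joined to the branch point near its 3′ end.

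The tables give each junction in RPM (reads scaled to the total of the library), and 1 read was worth 0.0152 to 0.0280 RPM. Whole reads were recovered from this step. The libraries held 4472 to 6122 junction reads (buffalo muscle), 15440 to 27141 (cattle muscle) and 12042 to 21053 (cattle adipose tissue). Buffalo reads had been aligned to the cattle genome, and the species are in separate tables, so no level was tested between species. The tissue labels were checked on the same tables. Hosts among 14 skeletal muscle markers, mainly NEB and MYBPC1, had 724 to 863 reads in buffalo muscle, 911 to 1384 in cattle muscle and 0 to 1 in adipose tissue, while hosts among 9 adipocyte markers, mainly PPARG, had 0 to 1, 1 to 3 and 18 to 26.

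Members made up a small and similar part of the circRNA pool. The member junctions of buffalo muscle had 124, 98 and 60 reads, in cattle muscle 227, 409 and 339, and in adipose tissue 279, 328 and 240. Their share of the summed circRNA RPM was 2.34%, 1.60% and 1.34% in buffalo muscle, 1.47%, 1.51% and 1.55% in cattle muscle, and 2.32%, 1.56% and 1.69% in adipose tissue. The adipose libraries lay above the cattle muscle libraries in this share, but the nearest pair, 1.56% and 1.55%, was almost equal, and the tissues overlapped when only junctions with at least 2 reads counted (1.36%, 1.43% and 1.46% in cattle muscle and 2.22%, 1.42% and 1.67% in adipose tissue). The means were 1.51% ± 0.039 in cattle muscle and 1.86% ± 0.40 in adipose tissue (SD, n = 3 each).

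Most members were seen with few reads. Of the 402 member junctions in cattle, 182 (45.3%) rested on a single read, compared with 39.0% of all junctions. Reads came from 49 hosts in the muscle of buffalo, 86 in that of cattle and 82 in adipose tissue. Of the member hosts with a read in cattle, 69 were read in both tissues, 17 only in muscle and 13 only in adipose tissue. The same split over all hosts was not computed, so nothing particular to members is read from it. At this depth a gene with no read in a cattle library could still have a circRNA level of up to 0.0710 to 0.0840 RPM, the value of 3 reads. Intervals and limits on reads cover counting error only.

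The members were then ordered by the role of their proteins. The LARP, EIF4 and PUM genes, most of which act on mRNA translation and stability, were taken as 1 group. This group held 40.1% of member reads for buffalo muscle, 25.4% for cattle muscle and 20.8% for adipose tissue, and LARP1B led it in each group. The MBNL, CELF, RBFOX, QKI and PTBP genes, regulators of alternative splicing, held 15.6%, 18.8% and 21.5%, with QKI in the lead. The order of these 2 families was the same in all buffalo muscle libraries, with 58, 33 and 22 reads for the LARP, EIF4 and PUM genes and 20, 10 and 14 for the splicing regulators. It was not the same in all cattle libraries, with 63, 104 and 81 against 39, 55 and 89 reads in muscle and 56, 78 and 42 against 56, 66 and 60 in adipose tissue. RBM genes held 9.22%, 12.5% and 16.2%. DEAD-box and DEAH-box helicases held 7.45%, 9.54% and 12.8% from 22 hosts in cattle. SR proteins, core regulators of exon choice, gave almost no circRNA, with 0%, 0.923% and 0.236% of member reads and SRSF11 as the leading host (6 reads in all 6 cattle libraries).

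A few hosts carried much of the signal. In buffalo muscle LARP1B, LARP4 and CPSF6 held 44.0% of member reads. In cattle muscle CPSF6, QKI and LARP1B held 31.9%, and in adipose tissue CPSF6, QKI and RBM6 held 21.5%. XRN1, the main cytoplasmic 5′ to 3′ exoribonuclease, had the most junctions in cattle (22), followed by LARP1B and MBNL1 (17 each), QKI (14) and HNRNPK (12). The reads of XRN1 were spread thinly over its junctions, since its leading junction in cattle muscle had 5 of 29 reads. CPSF6 was the opposite, with 104 of 108 reads in cattle muscle at 1 junction.

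**Figure D1:**
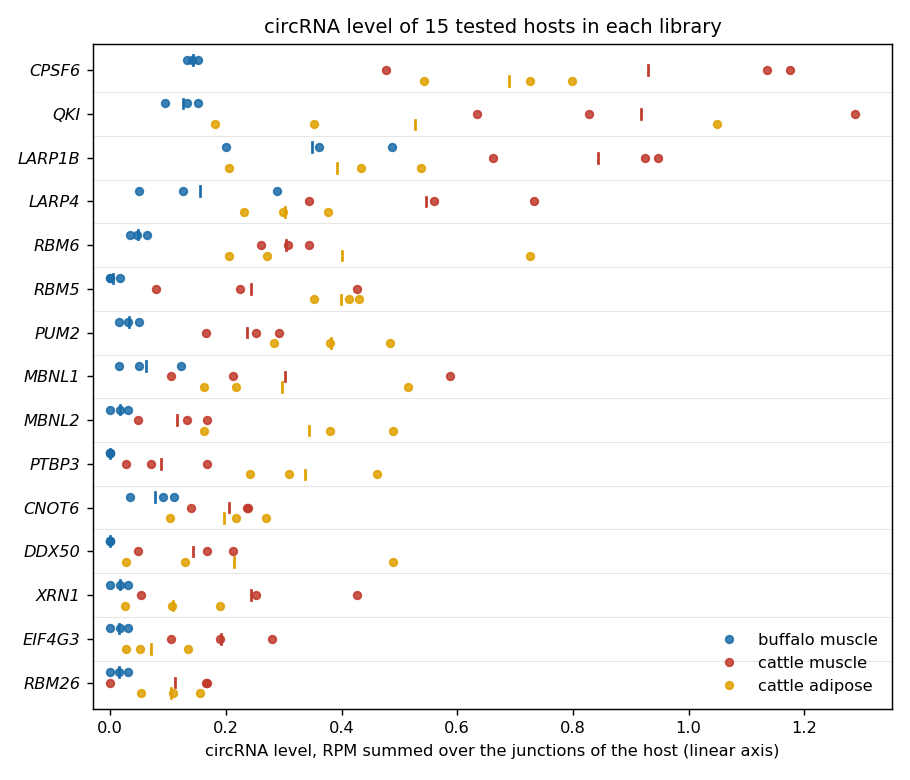
circRNA level of 15 of the 16 member hosts that passed the read filter, in RPM summed over the junctions of each host (linear axis). Each point is 1 library, the short vertical line is the mean of the 3 libraries, and colours mark buffalo muscle, cattle muscle and cattle fat; CPSF6, QKI and LARP1B reach the highest levels in cattle, PTBP3 is the host with a clear gap towards adipose tissue, and buffalo values come from a table with fewer junction reads and are not comparable in level.

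CPSF6 encodes a subunit of cleavage factor I, which helps to select the site of mRNA cleavage and polyadenylation. Its main circRNA, chr5:44772564-44785471 (UMD3.1, minus strand, exonic), had 10, 8 and 8 reads in buffalo muscle, 17, 46 and 41 in cattle muscle and 20, 26 and 29 in adipose tissue. It was read in every library and was the highest member junction in both cattle tissues. The cattle tissues overlapped.

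QKI encodes the STAR-family protein Quaking, a splicing regulator of muscle that also promotes circRNA formation. Its main circRNA, chr9:100370797-100392987 (plus strand, exonic), had 10, 6 and 7 reads in buffalo muscle, 22, 26 and 35 in cattle muscle and 8, 25 and 2 in adipose tissue. Adipose library 2 lay within the range of muscle, and the other adipose libraries lay below it. This junction held 95.8% of QKI reads in buffalo muscle (23 of 24, Wilson 95% interval 79.8% to 99.3%), 79.0% in cattle muscle (83 of 105, 70.3% to 85.7%) and 59.3% in adipose tissue (35 of 59, 46.6% to 70.9%).

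Junctions at the same coordinates in both species could be followed across all libraries. Among member junctions 42 were read in both buffalo and cattle muscle, which is 51.9% of the 81 read in buffalo muscle and 17.0% of the 247 read in cattle muscle. Over all junctions the shares were 47.1% and 18.6%. The 42 shared junctions held 76.2% of member reads in buffalo muscle (215 of 282) and 50.4% in cattle muscle (491 of 975). The same share of reads over all junctions was not computed. Of the 42, those read in all 9 libraries numbered 5, beside 132 of 2231 over all junctions. These 5 belong to CPSF6, QKI, CNOT6, PUM2 and RBM6.

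CNOT6, a deadenylase of the CCR4-NOT complex, gave a single circRNA, chr7:516044-518273, with 6, 7 and 2 reads in buffalo muscle, 9, 10 and 5 in cattle muscle and 8, 10 and 4 in adipose tissue. Its levels in the cattle tissues were nearly equal, at 0.205 ± 0.056 RPM in muscle and 0.196 ± 0.085 RPM in adipose tissue. PUM2, a Pumilio repressor of mRNAs, had 1, 1 and 3 reads in buffalo muscle, 10, 6 and 7 in cattle muscle and 7, 17 and 8 in adipose tissue at chr11:78579470-78594692. The RBM6 junction chr22:50825566-50828527 had 3, 2 and 1 reads, 9, 6 and 6 reads, and 6, 7 and 3 reads in the same order.

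Host genes also differed in which junction they used. LARP1B, a La-related RNA-binding protein, had the highest circRNA level of all members in buffalo muscle, with 32, 23 and 12 reads, and 25, 40 and 33 reads in cattle muscle and 16, 20 and 8 in adipose tissue. In buffalo muscle 26, 14 and 10 of these reads crossed chr17:30054876-30064195. In cattle muscle this junction had 2, 3 and 0 reads, and in adipose tissue it had none. Its share of LARP1B reads was 74.6% in buffalo muscle (50 of 67, Wilson 95% interval 63.1% to 83.5%) and 5.10% in cattle muscle (5 of 98, 2.2% to 11.4%).

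Cattle muscle used other LARP1B junctions. The leading ones were chr17:30061534-30064195, with 8, 15 and 7 reads, and chr17:29954171-29972872, with 10, 8 and 11 reads. The first of these ended at the same exon boundary, 30064195, as the junction that led in buffalo, and differed from it in the other end. LARP4, a La-related protein that binds poly(A) tails and stabilises mRNA, had few reads in buffalo muscle (19, 8 and 3). Of these, chr5:29627853-29637772 held 11, 4 and 0, or 50.0% in all (Wilson 95% interval 33.2% to 66.8%), and in cattle muscle it held 3, 7 and 9 of 13, 31 and 20 reads (29.7%, 19.9% to 41.8%). These intervals overlap. chr5:29643331-29648660 held 2, 0 and 0 reads in buffalo muscle (6.67%, 1.85% to 21.3%) and 9, 18 and 8 in cattle muscle (54.7%, 42.6% to 66.3%), and both buffalo reads came from 1 library. Reads of the species were aligned to the genome of 1 of them, and the part of this in the junction shares was not tested.

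The comparison of cattle muscle with cattle adipose tissue asked which hosts differ between the tissues. The RPM of a host was summed over its junctions and tested with limma on log2(RPM + 0.1) over 934 hosts with at least 5 reads in at least 3 of the 6 libraries. At an adjusted p under 0.05 (Benjamini-Hochberg), 133 hosts were called, which is 14.2% of those tested, 98 of them higher in muscle. This split depends on the scaling, since 73.7% of called hosts were higher in muscle on RPM and 50.8% when values were scaled to the summed circRNA RPM, which moved the median of all hosts by -0.26. Of the members, 16 could be tested and 0 were called. At an unadjusted p under 0.05, limma gave 3 of the 16 (PTBP3, LARP1B and MBNL2), beside 217 of all 934 hosts (23.2%). Of the 934, 90 passed the read filter through 1 tissue alone and so had to differ, and no member was among them. Without these hosts, left out after seeing the data, the count was 131 of 844 (15.5%), beside 18.8% of the 16 members. On recovered reads edgeR with TMM, edgeR without TMM and DESeq2 also called 0 of the 16, beside 15.1%, 12.7% and 14.6% of all hosts. The other members did not have 5 reads in 3 libraries, HNRNPK among them, whose 40 reads lay mostly in 2 libraries. With no filter limma called 0 of 99 members and 98 of 4757 hosts (2.06%). In bulk tissue, fewer cells of a type and less RNA per cell cannot be told apart. Hosts among 4 endothelial markers had 4 to 5 reads in muscle and 0 to 10 in adipose tissue, and those among 4 fibroblast markers 0 to 3 and 3 to 5; their part in the differences was not tested.

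Differences of the 16 hosts ran from -1.25 to 0.99 on the log2 scale, 7 towards muscle and 9 towards adipose tissue. Their median was -0.04, beside 0.05 for all 934 hosts. Of a list of 60 other RNA-binding genes outside the rule, such as DICER1, STAU1 and FXR1, 9 hosts could be tested and 0 were called by limma, with 0 at an unadjusted p under 0.05 and 0 by edgeR or DESeq2. Their differences ran from -0.33 to 0.48.

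**Figure D2:**
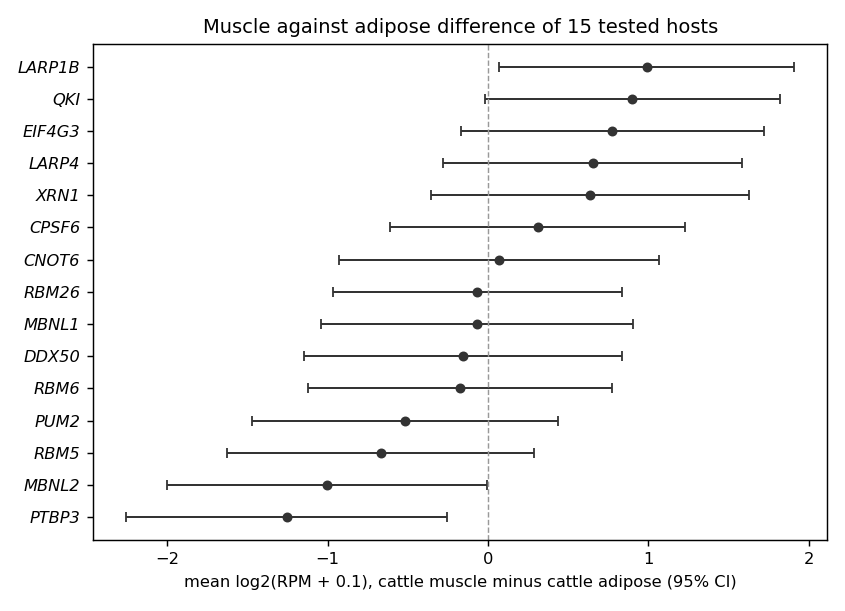
Difference in mean log2(RPM + 0.1) between cattle muscle and cattle adipose tissue for 15 of the 16 tested member hosts, with 95% confidence intervals from limma (n = 3 libraries per tissue). The points run from -1.25 (PTBP3) to 0.99 (LARP1B), and the intervals of PTBP3, MBNL2 and LARP1B leave out 0 before adjustment over all hosts.

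PTBP3, a paralogue of the splicing repressor PTBP1, had 1, 3 and 6 reads in cattle muscle and 17, 9 and 12 in adipose tissue. Every adipose library was above every muscle library, and no PTBP3 read was seen in buffalo muscle. The means were 0.0885 ± 0.072 RPM in muscle and 0.337 ± 0.11 RPM in adipose tissue, a log2 difference of -1.25 (SE 0.51, 95% interval -2.25 to -0.25, limma adjusted p = 0.0835). With values scaled to the summed circRNA RPM of each library, the difference was -1.57 and the limma adjusted p was 0.0185, a setting that called 185 of all 934 hosts (19.8%). Its reads were spread over 10 junctions, some of which the authors assign to more than 1 Ensembl gene. The lead in adipose tissue was shared by junctions with 7 of 38 reads each. They were chr8:103380607-103383274 (3, 1 and 3 reads), chr8:103372426-103404231 (7, 0 and 0) and chr8:103343417-103344453 (0, 0 and 7).

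MBNL2, a muscleblind splicing regulator, gave a single circRNA of 778 bp, chr12:78336155-78336932. It had 0, 2 and 1 reads in buffalo muscle, 5, 2 and 6 in cattle muscle and 14, 6 and 19 in adipose tissue. The cattle tissues met at 6 reads. The log2 difference was -1.003 (SE 0.51, 95% interval -2.00 to -0.01, limma adjusted p = 0.211). Its paralogue MBNL1 had 4, 9 and 21 reads in cattle muscle and 8, 6 and 20 in adipose tissue, and the difference of -0.07 had a 95% interval from -1.04 to 0.90. MBNL3 had 1 read in cattle muscle and 2 in adipose tissue.

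LARP1B differed by 0.99 towards muscle (SE 0.47, 95% interval 0.07 to 1.91, limma adjusted p = 0.164), and its cattle muscle libraries, at 0.661 to 0.946 RPM, did not overlap the adipose libraries, at 0.206 to 0.538 RPM. Groups that do not overlap were seen in 25.2% of all hosts tested and in 2 of the 16 members, PTBP3 and LARP1B. Hosts that passed the read filter through 1 tissue alone could not overlap. Without them the counts were 145 of 844 hosts (17.2%) and still 2 of the 16 members (12.5%). QKI had 24, 35 and 46 reads in muscle and 13, 39 and 7 in adipose tissue, a difference of 0.90 (95% interval -0.02 to 1.82, limma adjusted p = 0.227). With 1 library left out its difference ran from 0.445 (without adipose library 3, limma adjusted p = 0.767) to 1.46 (without adipose library 2, limma adjusted p = 0.0374), and of these 6 fits only the last called it.

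Junctions were tested in the same way, over 1917 junctions with at least 2 reads in at least 3 libraries. limma called 92, or 4.80%, of which 86 (93.5%) were higher in muscle, beside 67.2% of those called after that scaling. Of 30 member junctions tested, limma called 0 at an adjusted p under 0.05, 7 had an unadjusted p under 0.05 (383 of all 1917 junctions did), and edgeR with TMM, edgeR without TMM and DESeq2 called 0, beside 163, 113 and 129 of all 1917 junctions. Of the 7, 3 passed the read filter through 1 tissue alone and so had to differ. Without junctions of that kind, left out after seeing the data, 4 of 27 members and 169 of 1691 of all junctions (9.99%) had an unadjusted p under 0.05 by limma. Over all the alternatives the number of member junctions called ran from 0 to 4. The 4 of 30 (LARP1B, LARP4, QKI and EIF4G3) were called with the replicate number as a block, though no label says that a number marks 1 animal, and this setting called 214 of all 1917 junctions (11.2%). EIF4G3 is 1 of the 3 that had to differ.

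The 7 junctions, which were singled out after their values were seen, are given here as reads. chr17:29954171-29972872 of LARP1B had 10, 8 and 11 reads in muscle and 2, 0 and 2 in adipose tissue (log2 difference 1.40, 95% interval 0.51 to 2.29, limma adjusted p = 0.0620, and 0.0268 when only junctions with at least 5 reads in at least 3 libraries were tested, of which 19.6% were called). chr2:132416976-132424804 of EIF4G3, a scaffold of the translation initiation complex, had 2, 5 and 6 reads against 0 in each adipose library. chr5:29643331-29648660 of LARP4 had 9, 18 and 8 reads against 4, 3 and 0. In the LARP1B and LARP4 junctions all muscle libraries lay above all adipose libraries. The EIF4G3 junction passed the read filter through muscle alone, so its groups could not overlap.

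chr5:43403393-43445741 of CNOT2, a scaffold subunit of CCR4-NOT, had 2, 3 and 2 reads in muscle and 0 in each adipose library. It too passed the filter through muscle alone. The main QKI circRNA differed by 1.28 (95% interval 0.15 to 2.40, limma adjusted p = 0.170). With 1 library left out its difference ran from 0.707 to 1.88. The MBNL2 circRNA had its higher mean in adipose tissue. An HNRNPK junction, chr8:78581251-78582437, had 0 reads in each muscle library and 6, 2 and 2 in adipose tissue, and passed the filter through adipose tissue alone. Groups that do not overlap were seen in 5 of the 30 member junctions and in 23.3% of all junctions tested, but in 3 of the 5 (EIF4G3, CNOT2 and HNRNPK) the filter fixed this and nothing is read from it. Without such junctions the counts were 2 of 27 members and 220 of 1691 of all junctions (13.0%).

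Several regulators of muscle splicing did not pass the read filter. RBM20, which controls the splicing of titin in striated muscle, had 2, 1 and 0 reads in buffalo muscle, 5, 8 and 0 in cattle muscle and 0 in each adipose library. RBFOX1, which binds UGCAUG near regulated exons, had 2, 2 and 0 reads in cattle muscle and 0 in adipose tissue. Its paralogue RBFOX2 had 1, 1 and 1 reads in buffalo muscle, 3, 2 and 9 in cattle muscle and 0, 3 and 0 in adipose tissue. In the third muscle library RBM20 and RBFOX1 were not read, so the 0 in adipose tissue was also met within muscle.

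CELF1, a GU-rich element binding protein, had 1, 0 and 0 reads in buffalo muscle, 0 in each cattle muscle library and 1, 2 and 2 in adipose tissue, and CELF2 had 1 read in buffalo muscle and none in cattle. PTBP1 had 0, 1 and 1 reads in muscle and 1, 1 and 0 in adipose tissue. DHX9 had 1, 2 and 2 reads in muscle and 0, 1 and 0 in adipose tissue. HNRNPL gave no value here, nor did any ELAVL gene.

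Other families were led by low hosts. DDX50, a nucleolar RNA helicase, had 8, 2 and 6 reads in cattle muscle and 18, 1 and 5 in adipose tissue, and the high adipose library is a single one. PRPF39, a factor associated with the U1 snRNP, had 1, 9 and 3 reads in muscle and 2, 4 and 0 in adipose tissue. TNRC6B, a GW182 protein that acts with Argonaute in miRNA silencing, had 2, 7 and 3 reads in muscle and 3, 3 and 4 in adipose tissue. In each of these hosts the tissues overlapped.

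Members were then compared with other hosts in the kind of junction they gave, as a description without a test, since junctions of 1 host are not independent. The authors type each circRNA as exon, exon_intron or intron. In cattle, 61 of the 402 member junctions (15.2%) were intronic, compared with 430 of 16928 (2.54%) among junctions of the other named hosts. They came from 28 of 99 member hosts (28.3%), compared with 356 of 4658 other named hosts (7.64%). In buffalo muscle 3 of 81 member junctions were intronic (3.70%), against 46 of 4737 in all (0.971%). Without buffalo library 2 these shares were 1.61% and 0.687%. Exonic junctions made up 77.4% of member junctions in cattle and 87.5% of all, and the exonic circles of members spanned a median of 7142 bp, compared with 10292 bp for all.

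HNRNPK, a KH-domain protein that binds poly(C) RNA, gave only intronic circRNAs, 12 junctions in cattle and 1 in buffalo. It had 4, 0 and 0 reads in cattle muscle and 19, 15 and 2 in adipose tissue, so adipose library 3 lay within the range of muscle. MBNL1 had 11 intronic junctions of 17, with 0, 3 and 11 intronic reads in muscle and 5, 2 and 14 in adipose tissue. QKI had 5 intronic junctions, with 0, 0 and 7 reads in muscle and 2, 4 and 0 in adipose tissue. Only the muscle genes TPM1 (17) and NEB (13), which are not members, had more intronic junctions than HNRNPK.

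Intronic reads made up 3.96%, 3.91% and 7.37% of member reads in cattle muscle and 14.0%, 13.1% and 7.08% in adipose tissue. The adipose library 3 overlapped muscle. For all junctions the share was 0.693% to 1.05% in muscle and 0.731% to 1.18% in adipose tissue. Without HNRNPK and MBNL1, a choice made after seeing the data, 38 of 373 member junctions (10.2%) were still intronic, and the share of intronic reads was 2.28%, 3.25% and 4.40% in muscle and 5.95%, 8.47% and 0.459% in adipose tissue.

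**Figure D3:**
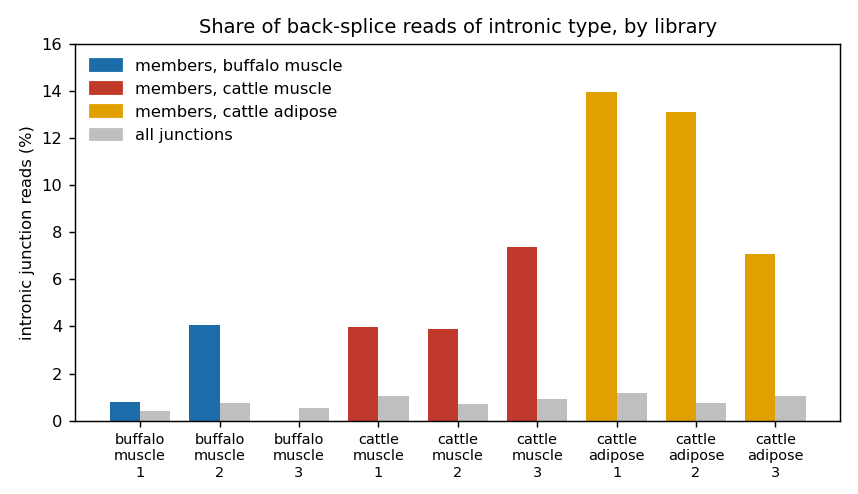
Share of back-splice reads that cross intronic junctions in each of the 9 libraries (linear axis from 0), for member hosts (coloured bars) and for all junctions (grey bars). Members reach 14.0% in cattle adipose library 1, while all junctions stay at or below 1.18%; buffalo muscle library 3 had 0 intronic member reads of 60.

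The ends of these intronic junctions followed a pattern. The 61 member junctions in cattle had 34 distinct upstream ends, read in the direction of the gene, but 61 distinct downstream ends. Of them, 35 fell into 8 sets that share an upstream end, and none shared a downstream end. Over all 531 intronic junctions 114 fell into 37 sets with a shared upstream end, and again none shared a downstream end. Exonic junctions of members shared ends on both sides, 140 of 311 at the upstream end and 127 of 311 at the downstream end.

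The largest set belongs to MBNL1. There, 10 junctions began at chr1:116245454 (minus strand) and ended within 16 bp, at 116244962 to 116244978, with 0, 3 and 11 reads in muscle and 5, 2 and 13 in adipose tissue. In HNRNPK, 8 junctions began at chr8:78582437 and ended within 16 bp, with 4, 0 and 0 reads in muscle and 18, 5 and 2 in adipose tissue. A further 3 HNRNPK junctions began at 78580967, with 0 reads in muscle and 1, 9 and 0 in adipose tissue.

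In QKI, 5 junctions began at chr9:100470736 and ended within 13 bp. Smaller sets belong to PTBP1 (3 junctions within 7 bp), RBM39 (2 within 5 bp), HNRNPH1 (2 within 3 bp) and RBFOX2 (2 within 1 bp). Across the 8 sets the circles spanned from 447 to 1376 bp. When intronic junctions with 1 upstream end were counted once and the other types were left as they are, 34 of 375 member junctions in cattle were intronic (9.07%), beside 2.46% for all. When junctions of every type were merged in this way within their type, 34 of 283 were, beside 3.43% for all.

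**Figure D4:**
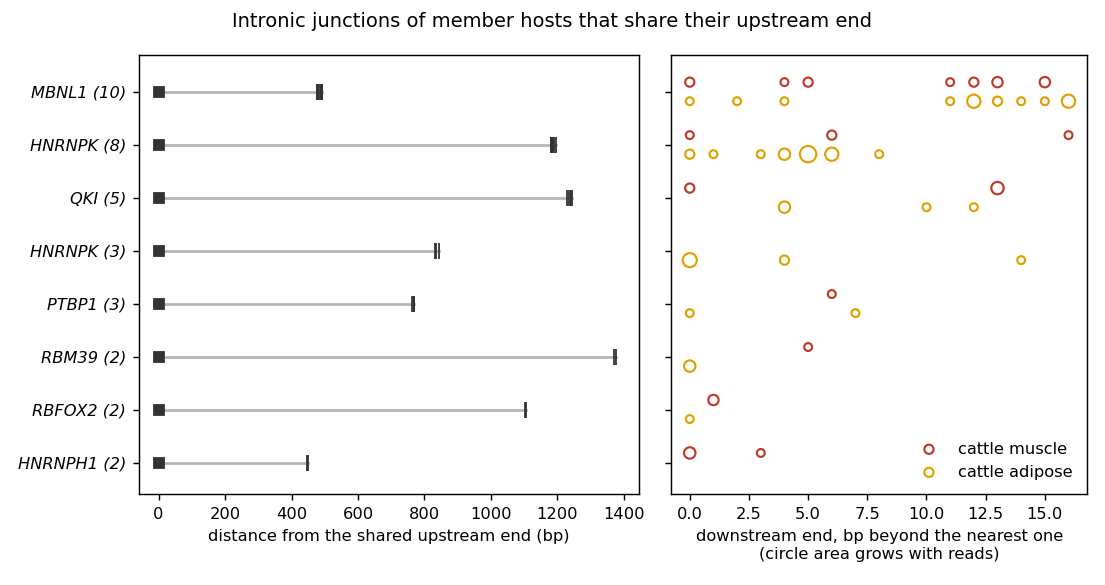
Intronic member junctions in cattle that share their upstream end, 1 row per set with the number of junctions in brackets. The left panel gives the distance from the shared upstream end (square) to the downstream ends (ticks) in bp along the gene, and the right panel gives how far each downstream end lies beyond the nearest one of its set, with 1 circle per junction and tissue and an area that grows with its reads; all downstream ends of a set lie within 16 bp.

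The mRNAs of the hosts were measured in buffalo muscle as FPKM per transcript. The 111 members had 118 named transcripts, and all were above 0 in all 3 libraries, beside 5673 of all 5798 transcripts named through a circRNA host. The lowest member transcript, of EIF4G3, had a mean of only 9.87e-06 FPKM. The median of the member transcripts was 4.29 on the log2(FPKM + 1) scale, beside 3.098 for the 5798 and 2.17 for the 19917 transcripts listed. A mean of at least 1 FPKM was reached by 97.5% of member transcripts and by 84.2% of all named ones.

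EIF4G2, a translation initiation factor related to EIF4G, had the highest mRNA level (497, 474 and 349 FPKM), followed by the helicase EIF4A2 (376, 394 and 352 FPKM). HNRNPA2B1, a packaging protein of nuclear RNA, had 321, 252 and 275 FPKM. MBNL1 had 226, 258 and 266 FPKM and QKI 205, 196 and 179 FPKM. Of these only MBNL1, QKI and HNRNPA2B1 had a circRNA read in buffalo muscle.

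As a description across genes of the same libraries, Spearman's rho between mRNA and circRNA level was 0.16 over the 111 hosts and 0.15 over the 49 with a circRNA read. Most hosts had 0 or few circRNA reads. LARP1B had the most circRNA reads (67) and an mRNA level of 6.72 ± 1.23 FPKM, rank 103 of 111. Of the 111 hosts, the 10 with the highest mRNA level had 42 of the 282 circRNA reads together.

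**Figure D5:**
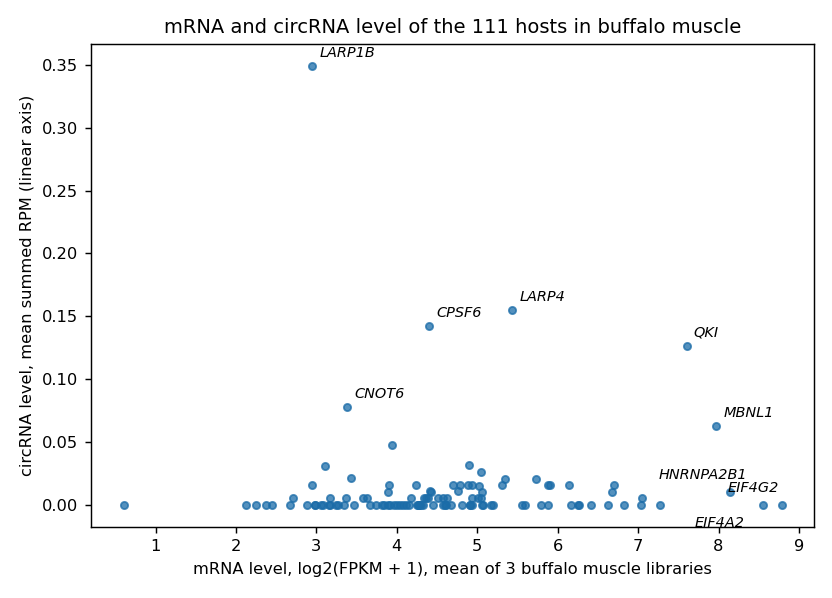
mRNA level (log2(FPKM + 1), summed over the transcripts of a gene) and circRNA level (RPM summed over junctions, linear axis) of the 111 member hosts in buffalo muscle, each point 1 host and the mean of 3 libraries. LARP1B is highest in circRNA at a low mRNA level, and EIF4G2 and EIF4A2 are highest in mRNA with a circRNA level of 0.

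The mRNA level also moved with the intronic type. Member hosts with an intronic junction in cattle had a median mRNA level in buffalo muscle of 5.05 on the log2 scale, and those without had 4.33. For hosts that are not members the values were 4.09 and 3.26. Hosts were split into 4 bins of equal size by mRNA level. In the bin with the highest level, 18 of 47 members (38.3%) and 150 of 1130 others (13.3%) had an intronic junction, and in the next bin 8 of 31 (25.8%) and 90 of 1145 (7.86%) had one. The share of members was the higher one in both upper bins. In the bin below them 1 of 19 members (5.26%) and 78 of 1157 others (6.74%) had one, and in the lowest bin 1 of 2 members and 37 of 1175 others (3.15%) had one. The mRNA levels are those of buffalo and the junctions those of cattle, and the part of mRNA level in the intronic share was not tested.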

How the data were processed

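Values were taken as deposited by the authors. Trim Galore, STAR, Cufflinks 2.2.1 and Cuffdiff are named in the submitters' processing notes, with genome build UMD3.1 for both species. The RPM values per back-splice junction were deposited by the authors in 1 circRNA table per species, and how circRNAs were called is not given in the sources used here. The mRNA FPKM values per transcript were deposited by the authors for buffalo. The lncRNA table was not used, and 12 columns of other samples were left out.

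The log2 scale was computed here from the deposited values. Every RPM value was a whole multiple of 1 step (100% within a tolerance of 0.01 reads), which gave whole reads. Depth was 4472 to 27141 junction reads per library, and most junctions rest on few reads. Hosts and junctions were tested with limma 3.58.1 (trend, R 4.3.3) on log2(RPM + 0.1), cattle muscle against cattle adipose tissue, with Benjamini-Hochberg adjustment over all features and a threshold of 0.05. Replicates are single animals of 1 breed. Alternatives were pseudocounts of 1 and 0.03 RPM, no filter and a stricter filter (10 reads for hosts, 5 for junctions), scaling to the summed circRNA RPM, the replicate number as a block, edgeR 4.0.16 with and without TMM and DESeq2 1.42.0 on recovered reads, and each library left out. The scripts were tested on simulated data.

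Named genes are the 6 highest member junctions of each group, called features (of junctions, the 5 largest changes each way), the leading host of each family, 12 factors known for circRNA formation or muscle splicing, hosts with a junction read in all 9 libraries, the 5 with the most junctions in cattle and the 5 highest member transcripts. Other names (PTBP3, EIF4G3, CNOT2, RBM39 and HNRNPH1 among them) were chosen after their values were seen. The members and lists were chosen with earlier results of these data known. Transcripts were named through the circRNA tables, which named 5798 of 19917. A gene that the rule names is not reported here by name, though it stays in all counts. No sequence was at hand, so none is printed.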

Additional observations from a re-analysis of the deposited data

How the results depend on the processing

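Of the tests, limma on host levels kept its count of 133 hosts within 1.5 times under each setting that uses all libraries, and leaving out 1 library gave 86 (without muscle replicate 3) to 139. The number of member hosts called was 0, except 1 when values were scaled to the summed circRNA RPM (PTBP3, log2 difference -1.57, limma adjusted p = 0.0185, beside 185 of 934 hosts or 19.8%) and 1 without adipose replicate 2 (QKI, beside 139 hosts or 14.9%), so over the libraries left out it ran from 0 to 1. That scaling moved the median of all hosts by -0.26, and the share of called hosts that were higher in muscle fell from 73.7% to 50.8%. At the junction level 92 junctions were called, and 49 with no filter, 163 by edgeR with TMM and 22 to 83 with 1 library left out (57 without adipose replicate 1, 40 without adipose replicate 3, 28 without muscle replicate 2 and 22 without muscle replicate 3). The scaling took the share higher in muscle from 93.5% to 67.2%. Member junctions called were 1 with the stricter filter (LARP1B, chr17:29954171-29972872, of 13 tested, beside 122 of 622 or 19.6% of all) and 0 to 1 with 1 library left out (the main QKI junction, without adipose replicate 2).

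With the replicate block limma called 214 of 1917 junctions (11.2%) and 4 of 30 member junctions (13.3%; LARP1B, LARP4, QKI and EIF4G3), and at the host level 153 hosts and 0 members. Without junctions that passed the filter through 1 tissue alone, EIF4G3 among them, the junction counts were 100 of 1691 (5.91%) and 3 of 27 (11.1%). Without hosts of that kind, the block called 83 of 844 hosts (9.83%) and 0 of the 16 members. Deviations of libraries with equal numbers correlated at 0.07, 0.04 and 0.02 over hosts and at 0.12, 0.10 and 0.03 over junctions. Each library correlated best with its own number, which does not show that a number marks 1 animal. Junction reads also had the same order over the numbers in both tissues (15440, 27141 and 21901 in muscle, 12042, 21053 and 14160 in adipose tissue). The part of depth in these correlations was not tested.

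Directions of small differences changed. CNOT6 was at -0.19 and CPSF6 at -0.0702 after the scaling, MBNL1 at 0.0062 and RBM26 at 0.073 by edgeR without TMM, and RBM26 at 0.0045 with a pseudocount of 1 RPM. With 1 library left out the difference ran from -0.184 to 0.247 for CNOT6, -0.668 to 0.438 for DDX50, -0.547 to 0.324 for MBNL1, -0.305 to 0.406 for RBM26 and -0.46 to 0.256 for RBM6. The member share of circRNA RPM in cattle muscle was 1.42% when only junctions with at least 2 reads counted, and libraries of the cattle tissues then overlapped. Member junctions shared by the species numbered 26 with at least 2 reads in each. The intronic share of 15.2% was 9.07% with shared upstream ends merged among intronic junctions alone, 34 of 283 with them merged in every type, 13.6% with at least 2 reads and 13.2% to 16.4% with 1 library left out, and the share of 3.70% in buffalo muscle was 1.61% (without replicate 2) to 4.41%, alternatives chosen after seeing the data. For every value above the cause of a change was not tested.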
